A study of Mus musculus with 15 samples.

Results

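Genes whose level at postnatal day 4 (P4) moved against their change from P0 to P3 were described in sorted cells of the neonatal mouse kidney. The 10 genes were *Met*, *Ddah1*, *Mllt3*, *Nell2*, *Anks4b* and *Calml4*, which were lower at P3 than at P0 and higher again at P4, and *Adam23*, *Gpx6*, *Creg1* and *Dennd5b*, which were higher at P3 and lower again at P4. They are 10 of 19938 genes with a probe set of a single symbol on the array, and of the 11885 genes kept after a filter on low values. They were selected on these same P0, P3 and P4 values, so the size of the reversal is given as a description, without a test.

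RNA of 15 pools, each of about 4 kidneys, was hybridised to an Affymetrix whole-transcript array, with 3 pools a day from P0 to P4. All pools came from CD-1 mice of unknown sex carrying the transgene Tg(Crym-EGFP)82Gsat, a reporter in which the regulatory region of *Crym* controls a green fluorescent protein, and from pups raised by foster mothers. Kidneys were dispersed with trypsin and fluorescent cells were sorted, with a gate that the sources used here do not state. The P0 to P3 pools are labelled cap mesenchyme and the P4 pools renal vesicle, while the design text of the series names cap mesenchyme for every day. The sources thus differ on the compartment at P4. Day and compartment label change together there and cannot be told apart. No untreated or unsorted pool serves as a control, and no source ties each pool to its own litter, so p-values measure only the spread between these pools. Values are log2 intensities as deposited.

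Cap mesenchyme is the population of nephron progenitors that surrounds the tips of the ureteric bud. It condenses and turns into the renal vesicle, the first epithelial structure of a nephron, and the progenitors are used up in the first days after birth in the mouse. Of the members, *Met* encodes the receptor tyrosine kinase of hepatocyte growth factor, and *Nell2* and *Adam23* encode proteins that act outside the cell, a secreted glycoprotein and a membrane protein of the ADAM family without protease activity. *Anks4b* and *Calml4* belong to the protein complex that links the tips of brush border microvilli, a feature of mature proximal tubule. *Ddah1* and *Gpx6* encode enzymes, *Creg1* a lysosomal glycoprotein, *Dennd5b* a DENN domain protein of membrane trafficking, and *Mllt3* (also called AF9) a chromatin reader of transcription elongation complexes.

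The labels were checked against defining genes of both compartments. *Crym*, whose regulatory sequence drives the reporter, averaged 11.91 ± 0.23 (SD, n = 3) at P0, 10.43 ± 0.17 at P3 and 7.80 ± 0.16 at P4 on the log2 scale. The progenitor gene *Six2* lay between 10.72 and 11.17 at P0, 9.49 and 9.93 at P3, and 8.11 and 8.68 at P4. Of the early nephron genes, *Lhx1* averaged 7.14 at P0, 9.86 at P3 and 10.25 at P4, and *Jag1* averaged 7.30, 9.71 and 10.49. *Wnt4* averaged 8.12, 9.14 and 9.06 on these days, and the progenitor gene *Cited1* 9.72, 7.51 and 7.18. Of these genes, only *Crym* and *Six2* differed between P3 and P4 by the test (adjusted p of 5.83e-06 and 0.0029 by limma). *Lhx1*, *Jag1* and *Wnt4* were therefore already high in the P3 pools that carry the cap mesenchyme label, which does not hold for every renal vesicle marker measured. In bulk pools, fewer cells of a type and less RNA per cell cannot be told apart.

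The promoters of 2 members are printed, *Anks4b* because it was the only matched member whose promoter held a searched motif and *Ddah1* as a member whose daily means declined on each day up to P3. RefSeq entries (mouse build GRCm38.p6) matched 9 of the 10 members, and *Nell2* had no entry. Each sequence covers the 250 bases before the start of the gene, 5′ to 3′ on the strand of the gene. The *Anks4b* promoter lies at chr7:120173608-120173857 on the plus strand, and capitals mark the HNF1 motif GTTAAT or its complement.

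Anks4b: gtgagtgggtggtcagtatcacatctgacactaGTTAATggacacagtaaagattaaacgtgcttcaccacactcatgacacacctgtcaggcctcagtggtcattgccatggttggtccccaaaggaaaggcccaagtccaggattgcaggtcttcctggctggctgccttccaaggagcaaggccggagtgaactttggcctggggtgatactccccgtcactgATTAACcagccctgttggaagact

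The *Ddah1* promoter lies at chr3:145758442-145758691 on the plus strand and has no capitals, since none of the motifs was found in it.

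Ddah1: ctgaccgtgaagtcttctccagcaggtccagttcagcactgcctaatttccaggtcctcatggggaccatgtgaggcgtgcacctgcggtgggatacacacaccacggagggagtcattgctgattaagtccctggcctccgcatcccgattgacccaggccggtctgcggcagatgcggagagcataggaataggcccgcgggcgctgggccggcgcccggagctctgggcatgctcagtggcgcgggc

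The motifs searched, on both strands, were part of the site of the epithelial factor HNF1 (GTTAAT), a site of HNF4 (CAAAGTCCA) and a site of the TCF/LEF factors (CTTTGAT). No letter of these motifs overlapped another match. The *Anks4b* window held GTTAAT 217 bases before the start on the gene's strand and 24 bases before the start on the opposite strand. Of 32851 mouse promoters of this length, 6.43% held GTTAAT, 0.384% the HNF4 letters and 3.21% the TCF/LEF letters. The *Anks4b* promoter was 52.8% G and C with 3 CpG pairs, and that of *Ddah1* 64.0% with 17, beside medians of 52.4% and 6 over all promoters. The promoters of *Met* (74.0%, 24 CpG), *Adam23* (70.4%, 27 CpG) and *Dennd5b* (63.6%, 28 CpG) were also rich in CpG, and those of *Gpx6* (50.8%, 3 CpG) and *Creg1* (48.4%, 8 CpG) were nearer to the medians. *Calml4* had 57.6% with 8 CpG, and the 2 promoters of *Mllt3* had 69.2% with 23 CpG and 45.2% with 4.

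*Met*, the receptor, had the largest step from P3 to P4. Its log2 value was 8.31, 9.01 and 8.58 in the P0 pools (replicates 1, 2 and 3), 7.37, 7.64 and 8.03 in the P3 pools, and 8.78, 9.17 and 9.16 in the P4 pools. The P3 pools were all below the P0 pools and the P4 pools were all above the P3 pools, while P4 and P0 overlapped. P3 was 0.95 log2 units below P0 (SE 0.22, 1.93-fold) and P4 was 1.36 above P3 (SE 0.22, 2.56-fold). The decrease lay between P1 and P2, from 8.47 ± 0.26 to 7.68 ± 0.29 (SD, n = 3), and P3 stayed at 7.68 ± 0.33. P4 returned 143% of the P0 to P3 difference, so that its mean lay 0.41 above P0.

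*Nell2*, a secreted protein with EGF-like repeats, had the same course at values near the median of the array. It was above that median, 6.86, on 9 of 15 arrays. Its values were 6.88, 7.19 and 6.88 at P0, 6.36, 6.54 and 6.50 at P3, and 7.23, 7.56 and 7.35 at P4. The 3 P4 pools were above all P0 pools as well as all P3 pools. The P0 to P3 difference was -0.52 (SE 0.13, 1.43-fold) and the P3 to P4 difference 0.92 (1.89-fold), a return of 178%. As for *Met*, the decrease lay between P1 and P2, from 7.08 ± 0.17 to 6.60 ± 0.03 (SD, n = 3).

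*Adam23*, whose product binds LGI proteins and integrins, ran the other way. Its values were 7.04, 7.22 and 7.02 at P0, 7.84, 8.26 and 7.65 at P3, and 6.70, 6.79 and 6.56 at P4. All 3 P4 pools were below each of the 12 earlier pools. P3 was 0.83 above P0 (SE 0.19, 1.78-fold), and P4 was 2.36-fold lower than P3, a difference of -1.24 (SE 0.19). Its mean was 7.25 ± 0.28 at P1 and 7.79 ± 0.33 at P2, again the widest gap between neighbouring days before P4.

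*Anks4b*, the scaffold of the intermicrovillar adhesion complex, whose promoter with the marked motifs is printed above, was lowest at P3. Its values were 8.26, 7.69 and 7.69 at P0, 7.60, 7.04 and 6.50 at P3, and 8.32, 7.72 and 7.93 at P4. The highest P3 pool was below the lowest P0 and P4 pools, but the gap was small, 7.60 against 7.69 and 7.72. Its mean was 7.77 ± 0.24 at P1, 7.73 ± 0.47 at P2, 7.04 ± 0.55 at P3 and 7.99 ± 0.30 at P4 (SD, n = 3). The differences were -0.84 (SE 0.29, 1.79-fold) from P0 to P3 and 0.95 (1.93-fold) from P3 to P4.

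*Calml4*, a calmodulin-like light chain of the same complex, was also lowest at P3. Its values were 7.31, 8.22 and 8.0 at P0, 7.19, 6.90 and 6.12 at P3, and 7.47, 8.13 and 8.11 at P4. The P3 pools were below all others of P0 and P4, though replicate 1 differed little between the days. P3 was 1.11 below P0 (SE 0.29, 2.15-fold) and P4 was 1.17 above P3 (2.25-fold), so that P4 lay 0.06 from P0. For both brush border members the widest gap before P4 was between P2 and P3, -0.69 for *Anks4b* and -0.80 for *Calml4* (both SE 0.29). From P1 to P2 they differed by -0.04 and -0.33. The lowest P3 pool of both was replicate 3. Without it the P0 to P3 and P3 to P4 differences were -0.56 and 0.68 for *Anks4b*, and -0.80 and 0.86 for *Calml4*.

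*Ddah1*, which breaks down asymmetric dimethylarginine, an inhibitor of nitric oxide synthases, was lower on each day up to P3. Its values were 11.23, 10.90 and 10.75 at P0, 10.30, 10.17 and 10.08 at P3, and 11.20, 11.21 and 11.09 at P4. Its mean was lower on each day than on the day before, 10.96 ± 0.25, 10.76 ± 0.15, 10.53 ± 0.04 and 10.18 ± 0.11 (SD, n = 3) from P0 to P3. P4, at 11.17 ± 0.06, was 1.98-fold above P3 and overlapped P0. The differences were -0.78 and 0.98 (both SE 0.13).

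*Gpx6*, a glutathione peroxidase best known from the olfactory epithelium, was the lowest member at P4 relative to its own P0 level. It exceeded the array median on 8 of 15 arrays. Its values were 6.97, 6.58 and 6.89 at P0, 7.96, 7.13 and 7.57 at P3, and 6.57, 6.01 and 6.13 at P4. The P4 pools were below all P0 pools, but the gap was very small, 6.57 against 6.58. They were below the array median in every case. P3 was 0.74 above P0 (SE 0.21, 1.67-fold) and P4 was 1.32 below P3 (2.50-fold). The P4 mean, 6.23 ± 0.30 (SD, n = 3), was 0.58 below that of P0.

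*Mllt3* connects acetylated histones with the super elongation complex and with the histone methyltransferase DOT1L. Its values were 9.31, 9.37 and 9.34 at P0, 8.82, 9.15 and 8.32 at P3, and 9.43, 9.66 and 9.60 at P4. All 3 P4 pools were above each of the 12 earlier pools. The mean was already at 8.76 ± 0.09 at P2 and stayed at 8.77 ± 0.42 at P3 (SD, n = 3). The differences were -0.57 (SE 0.16, 1.49-fold) and 0.80 (1.74-fold). Without P3 replicate 3 they were -0.35 and 0.57.

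*Creg1*, the lysosomal glycoprotein, had means of 7.73 ± 0.57, 8.10 ± 0.43, 8.49 ± 0.32 and 8.50 ± 0.21 (SD, n = 3) from P0 to P3, before 7.50 ± 0.19 at P4. Its values were 7.07, 8.04 and 8.08 at P0, 8.25, 8.59 and 8.65 at P3, and 7.33, 7.71 and 7.48 at P4. The P3 pools were above all P0 and P4 pools, while P0 and P4 overlapped. The differences were 0.77 (SE 0.27, 1.70-fold) and -0.99 (1.99-fold). Replicate 1 at P0 was far below its group, and without it the first difference was 0.44. Replicate 1 was the lowest pool on every day, however, and replicates 2 and 3 alone gave a first difference of 0.56.

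For *Dennd5b*, whose product belongs to a family of exchange factors of Rab proteins, the size of both steps rested on a single pool. Its values were 8.14, 8.94 and 8.27 at P0, 9.06, 9.32 and 10.65 at P3, and 8.31, 8.52 and 8.73 at P4. The P3 pools were above all P0 and P4 pools, and replicate 3 of P3 was far above the other two. The differences were 1.23 (SE 0.32, 2.34-fold) and -1.15 (2.23-fold), but 0.74 and -0.67 without that pool. A second probe set of *Dennd5b* gave 7.76, 8.36 and 7.99 at P0, 8.17, 8.58 and 8.79 at P3, and 8.04, 8.33 and 8.10 at P4. There the differences were 0.48 and -0.36, with the same directions, but the P3 pools overlapped both the P0 and the P4 pools.

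**Figure D1:**
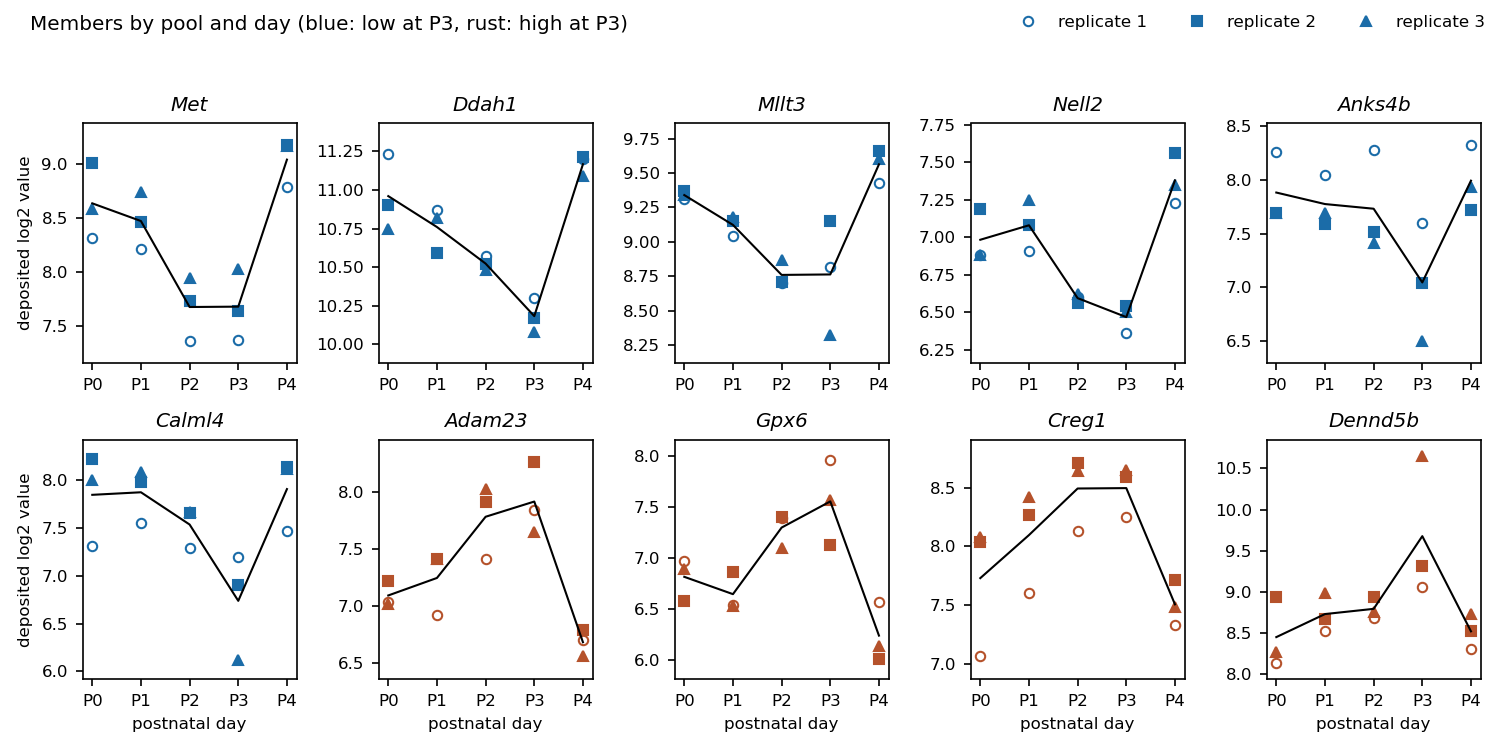
Deposited log2 value (vertical axis, own scale in each panel) of the 10 genes in each of the 15 pools, by postnatal day. Open circles are replicate 1, squares replicate 2, triangles replicate 3, and the line joins the means of the 3 pools of a day. The upper row and *Calml4* are low at P3, the other panels are high at P3, and the single triangle at 10.65 is replicate 3 of P3 for *Dennd5b*.

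Across the genes kept, 1.7% had P3 pools that did not overlap the P0 pools and P4 pools that did not overlap the P3 pools, in opposite directions. All 10 members did, which the way they were selected favours, and nothing is read from that count. The P4 pools did not overlap the P0 pools for 4 members, above them for *Mllt3* and *Nell2* and below them for *Adam23* and *Gpx6*, beside 15.9% of all genes. The P4 pools lay outside all 12 earlier pools for 2 members, *Mllt3* and *Adam23*, beside 3.78% of all genes. The selection on P0, P3 and P4 values can favour both of these counts as well, and nothing is read from them. Both differences share the P3 pools, and ranks among genes with opposite signs are given as a description. The ranks use differences of means and take no account of the spread between pools, which was wide at P3 for *Calml4* and *Dennd5b*. Ranked by the smaller of its differences, *Calml4* stood at rank 1 of the 3931 genes that were low at P3 and *Met* at rank 3, with *Nell2* at rank 35 the last. Among the 3192 genes that were high at P3, *Dennd5b* stood at rank 4, *Adam23* at 11, *Creg1* at 13 and *Gpx6* at 15.

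**Figure D2:**
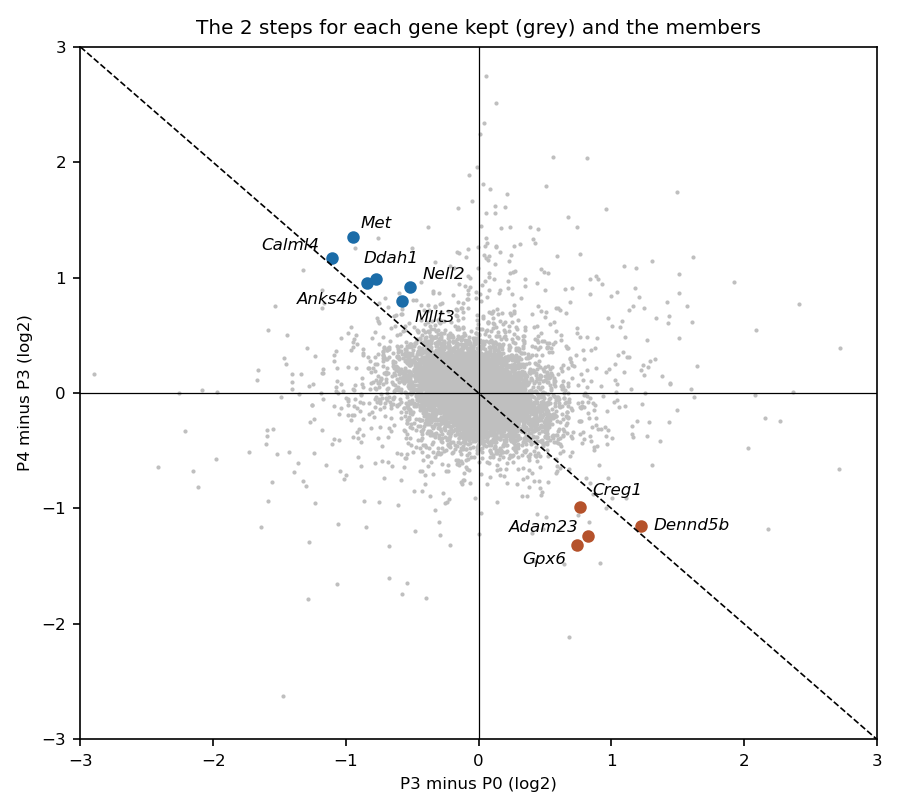
Difference of P3 from P0 (horizontal axis, log2) against difference of P4 from P3 (vertical axis, log2) for the genes kept (grey, 1 gene lies outside the plotted range) and the members (blue, low at P3; rust, high at P3). On the dashed line P4 returns exactly to the P0 mean, and *Dennd5b*, with a return of 94.1%, is the member that fell short of it.

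The limma fit over all genes gave the background of calls at an adjusted p under 0.05. P3 was lower than P0 for 1.09% of genes, among them *Met* and *Ddah1*, and higher for 1.09%, among them *Adam23*. P4 was higher than P3 for 1.04% of genes, including 4 members, and lower for 0.446%, including 2. Low at P3 by both calls were 0.0252% of genes (3 genes, *Met* and *Ddah1* among them), and high at P3 by both calls were 0.0505% (6 genes, *Adam23* among them). With the replicate number as a block, P3 was lower for 3.48% and higher for 3% of genes, and P4 higher for 2.31% and lower for 1.25%, with 6, 4, 6 and 4 members among the calls. Because these contrasts selected the members, nothing is read from the members' counts.

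The arrays of replicate 1 were tested against those of replicates 2 and 3, with the days held equal. The selection did not use this contrast directly, but a wide offset of replicate 1 widens the range of each day. Separate pools are then less likely, so nothing is read from the members' count beside the share of all genes. The labels number replicates 2 and 3 but not replicate 1. Each side of this split is called an array set below, a grouping assumed from the numbering alone. The difference between the sets passed the test for 42.5% of all genes (limma, Benjamini-Hochberg). It passed for 3 of the 10 members. *Met* averaged 8.01 in replicate 1 and 8.44 in replicates 2 and 3, a difference of -0.44 (SE 0.09, adjusted p = 0.00101). *Creg1* was lower in replicate 1 by -0.58 (SE 0.09, adjusted p = 0.000136) and *Anks4b* was higher by 0.62 (SE 0.09, adjusted p = 8.46e-05). The other 7 had adjusted p from 0.0619 to 0.585, and at an unadjusted p under 0.05 the difference was seen for 8 members and for 50.5% of all genes. Without P3 replicate 3 the count was 6, with *Adam23*, *Calml4* and *Dennd5b* added, while the count over all genes rose from 5048 to 5814.

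Because the P3 pools of every member lie apart from its P0 and P4 pools, its directions within each array set are fixed by the selection, and only the sizes are compared. Each set has 1 or 2 pools a day, so the spread in these tests comes from replicates 2 and 3 of all 5 days, and the lone pool of replicate 1 is assumed to vary like them. The test of whether the P3 to P4 difference itself differed between these array sets called 0% of all genes and none of the members, with 331 genes (2.79%) and 1 member at an unadjusted p under 0.05. For the P0 to P3 difference it also called 0% of genes, with 429 genes (3.61%) and 2 members at an unadjusted p under 0.05. *Calml4* differed most. Its P3 to P4 difference was 0.27 in replicate 1 and 1.61 in replicates 2 and 3 (difference 1.34, SE 0.37, unadjusted p = 0.00464, adjusted p = 0.999 by limma). Its P0 to P3 difference was -0.12 in replicate 1 and -1.60 in the others (unadjusted p = 0.00243, adjusted p = 0.991 by limma). *Creg1*, the other gene of that count, had P0 to P3 differences of 1.18 in replicate 1 and 0.56 in the others (unadjusted p = 0.0231, adjusted p = 0.991 by limma). Without P3 replicate 2 both tests called *Calml4*, with 12 and 87 genes called in all. For *Nell2* the P0 to P3 difference was -0.52 and -0.51 in the sets, and for *Adam23* 0.81 and 0.84.

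**Figure D3:**
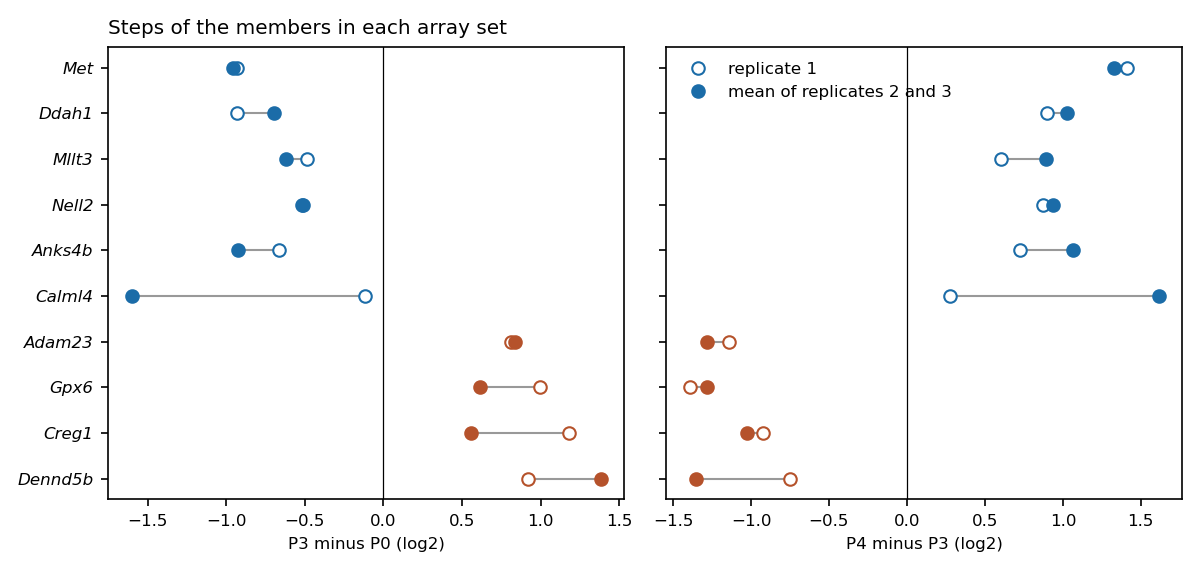
Difference of P3 from P0 (left) and of P4 from P3 (right), in log2 units, for each member in replicate 1 (open circles, 1 pool a day) and as the mean of replicates 2 and 3 (filled circles). The directions follow from the selection of the members, and the line between the circles is longest for *Calml4*, from -0.12 to -1.60 on the left and from 0.27 to 1.61 on the right.

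Genes that work with the members were taken from 9 lists of 151 genes, of which 143 were on the array with a single symbol and 105 passed the filter on low values. Of these 105, 1 rose and 1 fell between P0 and P3 and 1 rose between P3 and P4 (limma, adjusted p under 0.05), beside 1.09%, 1.09% and 1.04% of all genes, so that the shares were near the background. The median difference over the 105 was -0.04 and then 0.06, beside -0.02 and 0.01 over all genes. With the replicate number as a block, 6 rose and 5 fell between P0 and P3, and 2 rose between P3 and P4, beside 3%, 3.48% and 2.31% of all genes.

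In the list of *Met* signalling, 13 of 18 genes were tested. *Spint1*, an inhibitor of the proteases that activate hepatocyte growth factor, averaged 6.57 at P0 and 6.92 at P3 and rose to 7.85 at P4, by 0.93 (SE 0.14, adjusted p = 0.00235 by limma). It was above the array median on 5 of 15 arrays. The list's median differences were -0.05 and 0.11. *Hgf*, the ligand, was above the array median on 0 of 15 arrays. *Spint2* and *Plxnb1*, which encode a related inhibitor and a plexin that associates with MET, were not called in the fit without a block but rose between P0 and P3 with the replicate block (0.43, adjusted p = 0.0225, and 0.72, adjusted p = 0.000576, by limma), and *Spint2* rose further at P4 in that fit (0.40, adjusted p = 0.0491).

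In the list of ROBO receptors, to which NELL proteins bind, 7 of 9 genes were tested. *Robo2* fell from 10.90 at P0 to 9.17 at P3, by 1.73 (SE 0.16, adjusted p = 7.09e-05 by limma), and its P4 mean was 8.65, a further difference of -0.51 that did not pass the test (adjusted p = 0.216 by limma) but passed in the fit blocked on array set (adjusted p = 0.0474 by limma). *Slit2*, a ligand of these receptors, rose from 8.42 to 9.20 (0.78, SE 0.14, adjusted p = 0.0106 by limma) and averaged 9.08 at P4. *Slit2* was no longer called without P0 replicate 3 or without P3 replicate 2. With the replicate block *Robo1* also rose (0.69) and *Nell1* fell (-0.78), with adjusted p of 0.000507 and 0.0162 by limma. The receptor *Robo3* was above the median on 0 of 15 arrays.

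Of 18 brush border genes 10 were tested and none was called in the fit without the block, with median differences of 0.08 and 0.30. The protocadherins *Cdhr2* and *Cdhr5* and the motor *Myo7b*, which form the intermicrovillar complex with the products of *Anks4b* and *Calml4*, were above the median on 0 of 15 arrays, and the scaffold *Ush1c* on 1 of 15. With the block *Myo6* rose (0.79, adjusted p = 0.00701) and *Slc9a3r1* fell (-0.67, adjusted p = 0.00692, by limma) between P0 and P3. The proximal tubule marker list, 12 of 12 measured, had a summed linear intensity of 1128 to 1400 at P0, 1145 to 1427 at P3 and 1493 to 1581 at P4. Of its 12 genes, 4 were never above the median, *Cubn* and *Aqp1* among them, and *Lrp2*, the endocytic receptor megalin, rose from 6.80 at P3 to 7.68 at P4 (adjusted p = 0.0019 by limma), the only one of 7 tested genes of the list that was called. The part of these cells in the P4 values of *Anks4b* and *Calml4* was not tested.

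The remaining lists held no called gene in the fit without the block. Of the elongation and DOT1L genes that work with *Mllt3*, 16 of 19 were tested, with medians of -0.06 and 0.06. The nitric oxide list with *Ddah1* (11 of 18 tested) had medians of 0.00 and -0.17, the ADAM22 and LGI list with *Adam23* (3 of 8 tested) -0.16 and -0.07, and the antioxidant list with *Gpx6* (15 of 20 tested) -0.01 and -0.05. *Lgi1*, the best known ligand of ADAM23, was above the median on 0 of 15 arrays. The 18 of 23 lysosomal genes tested with *Creg1* had medians of -0.14 and 0.23, opposite in sign to the differences of *Creg1*. The DENN and Rab list with *Dennd5b* (12 of 18 tested) had medians of -0.03 and -0.07, and its paralogue *Dennd5a* differed by -0.09 and -0.31. With the block *Nos1* rose (0.50) and *Hexim1* (-0.44) and *Gpx8* (-0.52) fell between P0 and P3, with adjusted p of 0.0295, 0.0358 and 0.0426 by limma. *Hexim1* and *Gpx8* were not called in the fit blocked on array set (adjusted p of 0.0804 and 0.0521 by limma).

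**Figure D4:**
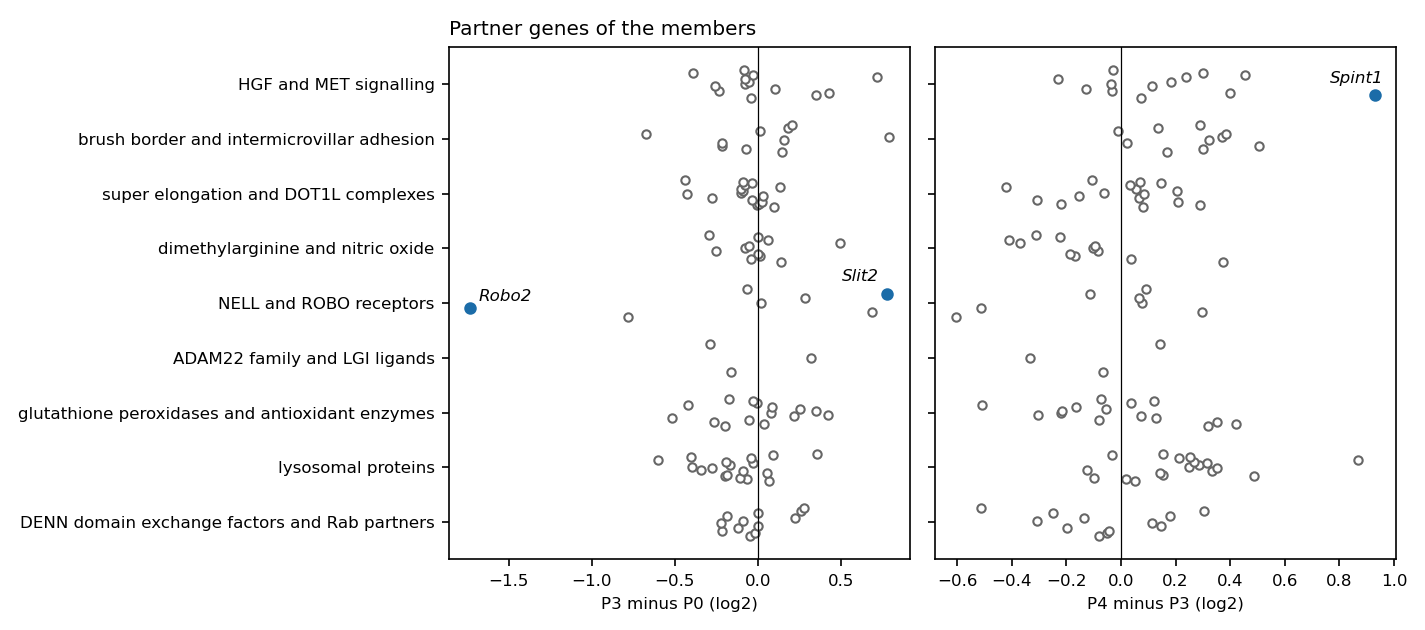
Difference of P3 from P0 (left) and of P4 from P3 (right), in log2 units, for the 105 tested genes of the 9 lists, 1 point a gene. Filled and named points passed the limma test at an adjusted p under 0.05, *Robo2* at -1.73 and *Slit2* at 0.78 on the left and *Spint1* at 0.93 on the right.

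The genes most like each member were found by Pearson's r over the 15 pools, after each array set was centred on its own mean. The 3 nearest genes of each member had r from 0.846 to 0.957, a description over pools that share days and array sets. *Ddx58* was among the nearest of *Met* (0.901), *Ddah1* (0.893) and *Nell2* (0.922), and *Cnot8* of *Met* (0.870) and *Ddah1* (0.931). *Cfb* was shared by *Ddah1* (0.895) and *Anks4b* (0.874), *Slc23a2* by *Adam23* (0.886) and *Creg1* (0.864), and *Ubac2* by *Gpx6* (0.873) and *Creg1* (0.879). The P0 to P3 and P3 to P4 differences of *Ddx58* were -0.27 and 0.42, and those of *Cnot8* -0.20 and 0.24. *Bzw1*, the nearest of *Dennd5b* (0.957), had 0.28 and -0.25, *Itm2b*, the nearest of *Calml4* (0.924), had -0.32 and 0.29, and *Frem1*, among the nearest of *Anks4b* (0.889), had -1.32 and 1.07.

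Markers of other cells were read beside the members. The cap mesenchyme list, 12 of 12 measured, averaged 9.76 to 10.38 in the P0 pools, 9.27 to 9.41 at P3 and 8.31 to 8.47 at P4 (mean log2 over the list), and the renal vesicle list 7.37 to 7.88, 8.67 to 9.36 and 9.08 to 9.74. The means of both lists went on in the same direction from P3 to P4, though the renal vesicle ranges of these days overlapped. Of the cap mesenchyme genes, 5 fell between P0 and P3 and 5 between P3 and P4 by the test. Of the renal vesicle genes, 7 rose between P0 and P3 but only 1, *Dkk1*, between P3 and P4. The stromal list, 10 of 10 measured, ranged from 7.92 to 8.04 at P0, 7.31 to 7.69 at P3 and 7.50 to 7.53 at P4, with 2 genes lower at P3 by the test and none different between P3 and P4. Of the endothelial markers 9 of 10 were above the median on no array. Of the marker list for distal tubule and loop of Henle, 10 of 10 measured and 5 tested, 2 genes rose between P3 and P4 (*Sim1* and *Tmem52b*, adjusted p of 0.000785 and 0.000602 by limma) and 4 were above the median on no array. Of the ureteric bud and collecting duct list, 9 of 10 measured and 5 tested, 1 gene rose (*Gata3*, adjusted p = 0.000198 by limma) and 3 were above the median on no array. *Gata3* was above the median on 3 of 15 arrays, *Tmem52b* on 4 and *Sim1* on 8, so that the first pair passed the filter on low values through few arrays. The day means of *Gata3* and *Tmem52b* exceeded the median only at P4, with 8.04 and 7.93. The filter thus favoured the day that the test called higher. The part of these cells in the members' values was not tested.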

How the data were processed

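RNA of 15 sorted pools was amplified once (WT-Ovation Pico), labelled with biotin and hybridised by the authors. Per the labels, Affymetrix Expression Console made the deposited log2 values. The sources used here do not state its version, the summary algorithm or the build, and 15 arrays limit the precision. Array medians lay between 6.80 and 6.92 and the values were used as deposited. Of 35557 probe sets, 21789 had 1 symbol in the platform annotation, 1621 several and 12147 none. A gene took its probe set with the highest mean (999 genes had several), and was kept if it exceeded the median of all values, 6.86, on at least 3 arrays. The day means of all 15 samples were fitted with limma 3.58.1 in R 4.3.3 (lmFit, eBayes, two-sided, Benjamini-Hochberg over 11885 genes, threshold 0.05), and the fit was tested on simulated data. Array set tests added a term for replicate 1 against replicates 2 and 3. Same-numbered pools deviated together, with r over 0.1, in 9 of 9 pairs of P0, P3 and P4 (lowest r 0.329). Over all days 29 of 30 pairs had r over 0.1 (lowest r 0.0782). The offset of replicate 1 from replicates 2 and 3 can give this without pairing, so pairing is not read from it. The replicate block takes its numbers from the labels, with replicate 1 unnumbered. No pools were identical (highest r 0.990). Named genes were all members, up to 3 called genes a list, the 3 most correlated genes of each member and 6 label checks. The markers and the genes called with the block that are named beside them were chosen after their values were seen. Members and lists were chosen with earlier results of these data known.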

Additional observations from a re-analysis of the deposited data

How the results depend on the processing

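The members' directions follow from their selection and their separate pools, and filters, balanced blocks and pools of other days cannot move their differences, so neither is read as stability. Under the alternatives 23 member values moved by more than the spread between pools, mostly where P4 was set against the mean of P0 to P3, or the line through them, in place of P3. With the replicate block, calls rose to 770 genes for P3 against P0, 422 for P4 against P3, 43 called in both and opposite, and 11 and 2 partner genes. With the array set as a block these were 716, 398, 37, 9 and 3, without *Hexim1* and *Gpx8* among the 9 and with *Robo2* among the 3. With replicates 2 and 3 alone, 5 and 2 partner genes were called, *Slit2* and *Robo2* among the first and *Spint1* among the second. Without the filter on low values, 8494 genes and 3 members differed between array sets, and after quantile normalization 5173 genes and 5 members did. Leaving out each pool in turn gave 119 to 267 genes for P3 against P0 (lowest without P0 replicate 3), 77 to 187 for P4 against P3 (lowest without P4 replicate 3), 2 to 9 called in both and opposite, and 1 to 2 partner genes in either contrast (*Slit2* lost without P0 replicate 3 or P3 replicate 2, *Lipa* gained without P3 replicate 1). It gave 3929 to 5814 genes and 3 to 6 members for the array set, 0 to 12 genes and 0 to 1 members for its interaction with the P4 step, and 0 to 87 genes and 0 to 1 members for that with the P0 to P3 difference, with the highest of these interaction counts without P3 replicate 2. The array set tests were not run with either block or with replicates 2 and 3 alone, and an interaction could not be estimated without the replicate 1 pool of a day it compares. The causes were not tested.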

Other observations

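Outside the members, 6 genes passed the limma test in both contrasts with opposite directions, and all 6 also passed both with the replicate block. They were selected on these values, and 5 of them are given as a description. *Frem1*, which encodes an extracellular matrix protein of epithelial basement membranes, averaged 8.46 ± 0.09 at P0, 7.14 ± 0.50 at P3 and 8.20 ± 0.03 at P4 (SD, n = 3). *Rnase12*, of the ribonuclease A family, averaged 7.32 ± 0.33, 9.14 ± 0.52 and 7.98 ± 0.30 on these days, and so kept part of its increase. *Ptger3*, a prostaglandin E receptor, averaged 6.37 ± 0.20, 7.23 ± 0.08 and 6.36 ± 0.17. The highest *Ptger3* pools at P0, P1 and P4 (6.60, 6.36 and 6.55) were below the median of all values, 6.86. *Ptger3* thus passed the filter on low values only through pools of P2 and P3. The filter here favoured the day that both tests called higher. *Msc*, a transcription factor gene, averaged 7.59 ± 0.24, 8.44 ± 0.23 and 7.65 ± 0.20. *C1qtnf12*, a secreted C1q-related protein, averaged 9.38 ± 0.32, 10.38 ± 0.25 and 9.47 ± 0.16.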
